A study of Mus musculus with 2 samples.

Results

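Macrophages rich in transcripts of Lyve1, Folr2 and Timd4 were examined in a single-cell RNA sequencing library of colonies grown from the mouse aorta. They were chosen by 1 readout, the summed unique molecular identifiers (UMIs, each marking 1 captured RNA molecule) of these 3 genes in counts per 1000000 gene UMIs of the cell (CPM). Macrophages at 1000 CPM or more formed the group, which held 1036 cells. That was 56.4% of the 1838 macrophages (exact binomial 95% interval 54.1–58.6%), and 3.05% of the 33964 barcodes that passed the filters out of 34813 in the matrix. The 463 macrophages under 300 CPM were the comparison group, and 339 lay between. The 3 groups are called marker-high, marker-low and intermediate macrophages below.

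Per the labels' protocols, the aortas came from 2 male C57BL/6J mice aged 12 weeks, with no allele, agent or treatment beyond the culture itself named. Perivascular fat was dissected away, the digested cells grew for 14 days in methylcellulose, a gel that keeps the offspring of a progenitor together, and macrophage colonies (colony-forming unit macrophage) were dispersed and sorted for viable cells. The labels give this culture for the library as a whole. All groups compared here came from this 1 pooled library, so cells were not replicates and no value below has a p-value. No deposited column tied a cell to a mouse or a colony, so the spread between mice cannot be given. All intervals are 95% intervals that cover counting error only.

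LYVE1 is a receptor for the matrix sugar hyaluronan, FOLR2 is a folate receptor and TIMD4 binds phosphatidylserine exposed on dying cells. Macrophages that carry them, together with the mannose receptor MRC1, are found in many tissues, often along vessels, and are classed as tissue-resident. In the artery wall, LYVE1 macrophages lie mainly in the adventitia, the outer layer. Macrophages rich in major histocompatibility complex (MHC) class II and in CCR2, the receptor that draws monocytes from blood, are usually set against them. LYVE1 is also a marker of lymphatic endothelium.

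Sequences upstream of the marker genes are shown because the groups differ in the transcripts of these genes. Motifs of the transcription factors PU.1, AP-1 and MAF could also be sought in these sequences. Of the 4 markers, Folr2, Timd4 and Mrc1 matched the RefSeq promoter table (build GRCm38.p6), and Lyve1 did not. Each line gives 250 bases that end just before a start site, 5′ to 3′ on the gene's strand. Folr2 has more than 1 start in RefSeq, and the inner one is shown. Capitals mark matches, on either strand, to GAGGAA (the core bound by PU.1), TGAGTCA (the AP-1 element) or TGCTGA (part of the MAF element).

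Timd4, chr11:46810549-46810798, plus strand: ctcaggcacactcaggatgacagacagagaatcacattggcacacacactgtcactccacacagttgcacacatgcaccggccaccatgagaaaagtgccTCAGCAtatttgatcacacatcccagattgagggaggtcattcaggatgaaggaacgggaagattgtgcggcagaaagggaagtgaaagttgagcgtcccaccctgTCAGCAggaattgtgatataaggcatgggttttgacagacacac

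Folr2, chr7:101845332-101845581, minus strand: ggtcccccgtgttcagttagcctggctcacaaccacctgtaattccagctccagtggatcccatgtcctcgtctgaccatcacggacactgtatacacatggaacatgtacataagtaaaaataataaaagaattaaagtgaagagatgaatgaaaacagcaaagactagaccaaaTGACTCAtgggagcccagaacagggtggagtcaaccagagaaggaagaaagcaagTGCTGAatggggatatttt

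Mrc1, chr2:14229164-14229413, plus strand: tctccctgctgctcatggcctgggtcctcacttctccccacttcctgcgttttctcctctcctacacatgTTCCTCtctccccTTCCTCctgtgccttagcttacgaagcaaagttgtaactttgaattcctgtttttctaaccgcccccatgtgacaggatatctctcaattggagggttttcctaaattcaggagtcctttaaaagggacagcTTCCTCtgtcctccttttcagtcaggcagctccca

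The Timd4 window held 2 MAF matches, the Folr2 window shown held 1 AP-1 element and 1 MAF match, and the Mrc1 window held 3 PU.1 cores. The window of the outer Folr2 start, not shown, held 1 MAF match and 0 AP-1 elements. Among all 32817 promoters of the same length, 23.3% held GAGGAA, 4.46% TGAGTCA and 16.1% TGCTGA. A match describes the letters in the window and shows no binding.

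Before the groups are compared, 3 features of the library need stating. The macrophages lay in a library of mostly other cells, with 24471 mast barcodes and 4315 fibroblast barcodes by the same kind of gates. Mast cell transcripts were found in every group: Cpa3, a mast cell protease, had 1204 CPM (from the summed counts of the group) in marker-high, 2078 in intermediate, 1526 in marker-low and 17446 in mast barcodes. The 14 listed mast cell genes stood at 6.03–12.2% of their mast cell level in marker-high macrophages and at 7.88–18.3% in marker-low, a similar low share for each gene, and were read as background RNA. The labels name male mice, yet 368 marker-high macrophages (35.5%) had at least 2 UMIs of Xist, which is transcribed from an inactive X chromosome, and none of 4 Y-linked genes. Another 195 (18.8%) had at least 2 UMIs of the Y-linked genes and none of Xist. In marker-low macrophages these classes held 120 cells (25.9%) and 84 cells (18.1%). The library therefore did not match its label in this respect, and the main values are given within both classes below.

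The matrix also counted oligonucleotide tags of the MULTI-seq method, by which a suspension is marked before pooling. The tag named Macrophages was called alone on 973 marker-high cells (93.9%, 92.3–95.3%) and on 410 marker-low cells (88.6%, 85.3–91.3%). It was called alone on 1.02% of mast and 0.904% of fibroblast barcodes, so both macrophage groups mostly carried this tag. The tag named Cafum was called alone on 0 marker-high macrophages, which allows a share of up to 0.355%, and on 51.8% of mast barcodes. The tag named Matrigel was called alone on 55.0% of fibroblast barcodes. More than 1 tag was called on 5.31% of marker-high, 10.9% of intermediate and 7.34% of marker-low macrophages. The labels do not say what each tag marked, so a culture shared by macrophage, mast and fibroblast barcodes is not shown. Median depth was 7482 gene UMIs per cell in marker-high (range 1143–45075), 7524 in intermediate and 7139 in marker-low macrophages, and median mitochondrial shares were 4.74%, 4.68% and 4.40%.

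The marker sum spread widely among the marker-high macrophages, from 1002 CPM through a median of 2095 to 7321. A cell had 2–91 marker UMIs with a median of 16, and 9 cells rested on 3 or fewer. In the marker-low group 306 of 463 cells had no marker UMI, and 39 cells were too shallow for 1 UMI to leave them under 300 CPM. No gap separated the groups: 38 macrophages lay from 900 up to 1000 CPM and 45 from 1000 up to 1100. Just outside and just inside the threshold, Mrc1 was at 3957 and 3465 CPM, Ednrb at 690.2 and 800.4 CPM, and H2-Aa at 3899 and 3257 CPM.

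**Figure D1:**
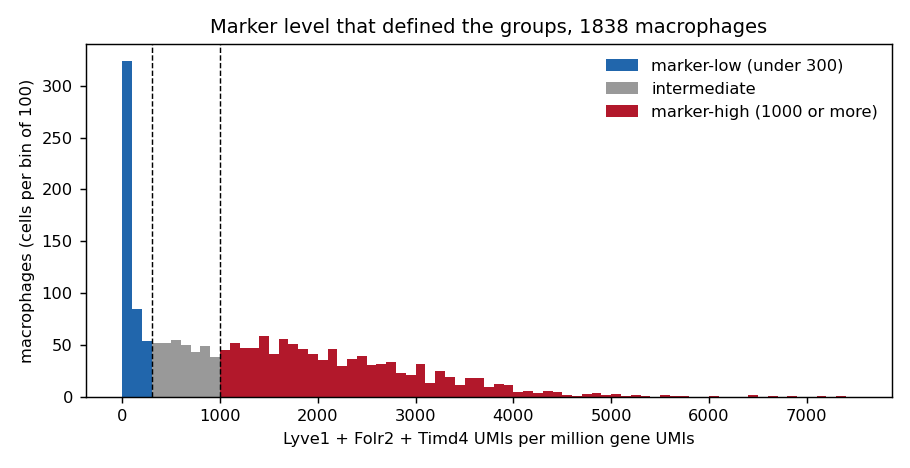
Histogram of the 1838 macrophages by their Lyve1, Folr2 and Timd4 UMIs in CPM (bins of 100, vertical axis in cells), coloured by group, with dashed lines at 300 and 1000 CPM. The 463 marker-low cells pile up near 0, and the 1036 marker-high cells run on without a gap from the 339 intermediate cells.

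The 3 genes that chose the cells contributed unequally. Lyve1 (ENSMUSG00000030787; GRCm38 chromosome 7, 110850607–110863239, minus strand) had 949 CPM in marker-high, 195 in intermediate and 16.4 in marker-low macrophages, with a UMI in 986 marker-high cells. Folr2 (ENSMUSG00000032725; chromosome 7, 101839988–101857194, minus strand, overlapped by Gm10602 on the other strand) had 1032, 366 and 46.9 CPM, with a UMI in 1020 marker-high cells. Timd4 (ENSMUSG00000055546; chromosome 11, 46810800–46844332, plus strand) had 248, 64.9 and 9.57 CPM, with a UMI in 718 marker-high cells. Folr2 therefore supplied 46.3% of the marker UMIs, Lyve1 42.6% and Timd4 11.1%, and membership rested mainly on Lyve1 and Folr2. These values follow from the choice of cells.

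To compare detection at 1 depth, each cell was thinned to 3500 UMIs, which kept 984 marker-high cells and left out 52, and kept 417 marker-low cells and left out 46. Among the 984 cells, 422 (42.9%) had UMIs of all 3 genes and 410 (41.7%) had Lyve1 and Folr2 without Timd4. The other combinations were less frequent: 68 cells had only Folr2, 41 had Folr2 and Timd4, 21 had Lyve1 and Timd4, 19 had only Lyve1, 1 had only Timd4 and 2 had none left. Detection of Timd4 after thinning was 49.3% in marker-high, 17.7% in intermediate and 3.12% in marker-low macrophages, against 0.270% in mast and 0.165% in fibroblast barcodes (before thinning 69.3%, 36.9%, 5.18%, 0.887% and 1.81%).

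The label was checked against cell type markers. Mrc1 (ENSMUSG00000026712; chromosome 2, 14229392–14332057, plus strand), the marker that the rule did not use, had 5252 CPM (5204–5300) in marker-high, 2931 in intermediate and 1622 (1583–1661) in marker-low macrophages, a ratio of 3.24 (3.16–3.32). The general macrophage genes were present in the marker-high cells, with Csf1r, the receptor for colony-stimulating factor 1, at 796 CPM, Adgre1, which encodes F4/80, at 394 CPM and Cd68 at 250.5 CPM. C1qa, a complement gene also used to gate the macrophages, had 3451 CPM in marker-high and 2548 CPM in marker-low cells. Lymphatic endothelium, which also has Lyve1, was checked by its markers. Prox1, its defining transcription factor, had 4.34 CPM (38 UMIs in all 1036 cells) against 0.491 CPM (2 UMIs) in marker-low macrophages, a ratio of 8.84 (2.29–75.7), and 0.219 CPM in mast barcodes. Pdpn had 13.5 CPM (118 UMIs) against 23.1 CPM, Flt4 0.343 CPM and Mmrn1 no UMI. The 5 endothelial markers Cdh5, Kdr, Tek, Tie1 and Emcn summed to 3.43 CPM in marker-high and 5.65 CPM in marker-low macrophages. The 6 fibroblast markers summed to 297 CPM in marker-high, 478 in marker-low and 13863 in fibroblast barcodes, with none at 0, and their part in the results was not tested. The dendritic cell markers Xcr1 and Clec9a had 2 and 1 UMIs in the whole marker-high group. Zbtb46, a transcription factor of dendritic cells, had 91 UMIs, at 10.4 against 6.38 CPM in marker-low cells, a ratio of 1.63 (1.04–2.63). The longer dendritic cell list of 9 genes summed to 289 against 126 CPM. Cd209a, at 223 against 24.6 CPM, made up most of the marker-high sum. Batf3, Itgax, Ccl22, Ccr7, Clec9a and Xcr1 of this list were lower, Batf3 at 52.6 against 64.1 CPM and Itgax at 1.37 against 19.6 CPM. Besides Cd209a, only Zbtb46 and Flt3 (0.800 against 0.737 CPM) were higher.

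Across all genes, 6192 reached 20 CPM in the marker-high or the marker-low group, and these are called measured below. Of them, 295 were at least 2-fold higher in marker-high macrophages (4.76%) and 355 at least 2-fold lower (5.73%). The median log2 ratio over all measured genes was -0.02. Because the groups were cut by a readout of the same cells, every difference between them is a description, and genes that vary with the 3 markers had to differ.

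Among the 15 genes with the highest ratios, Ednrb, the B-type receptor for the vessel-constricting peptide endothelin (chromosome 14, 103814625–103844402, minus strand), had 1250.0 CPM (1227–1274) in marker-high, 468 in intermediate and 44.7 CPM (38.4–51.7) in marker-low macrophages, a ratio of 27.98 (24.2–32.6). After thinning, 82.2% of marker-high and 5.28% of marker-low cells had an Ednrb UMI. Ednrb had 4.13 CPM in mast and 6.04 CPM in fibroblast barcodes. Fcna, which encodes ficolin A, a lectin that starts complement activation, had 415, 100.5 and 17.7 CPM in the 3 groups, a ratio of 23.5 (18.6–30.1). C4b, a complement component, had 243, 95.1 and 13.7 CPM, a ratio of 17.7 (13.6–23.5). Ltc4s, the synthase of the lipid mediator leukotriene C4, had 389, 134 and 39.8 CPM, a ratio of 9.78 (8.35–11.5).

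A cluster of C-type lectin genes on chromosome 8 moved in the same direction. Cd209b, Cd209d, Cd209f and Cd209g, relatives of the pathogen receptor DC-SIGN, had marker-high levels of 126, 331, 631 and 291 CPM against 3.44, 16.9, 30.4 and 14.2 CPM in marker-low macrophages. Their ratios were 36.6, 19.5, 20.7 and 20.5. Cd209a, of the same family, had 223 and 24.6 CPM, a ratio of 9.08 (7.42–11.2). These genes are close copies, so the split of UMIs among them is uncertain.

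Less abundant genes completed the set with the highest ratios. Sema6a, a transmembrane semaphorin, had 50.8 CPM in marker-high and 0.737 CPM (3 UMIs) in marker-low macrophages, a ratio of 69.0 with a wide interval of 23.5–336. Mctp2, a membrane protein with C2 domains, had 91.5 and 1.72 CPM, a ratio of 53.3 (25.7–133). Siglech, a sialic acid-binding lectin better known from plasmacytoid dendritic cells and microglia, had 68.8 and 6.87 CPM. Tslp, a cytokine known mainly from epithelium, had 57.8 and 4.91 CPM, a ratio of 11.8 (7.54–19.4), with UMIs in 341 marker-high cells and at most 7 in any of them. The Tslp signal was thus spread over many cells at a low level, and Tslp stood at 12.4 CPM in mast barcodes.

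**Figure D2:**
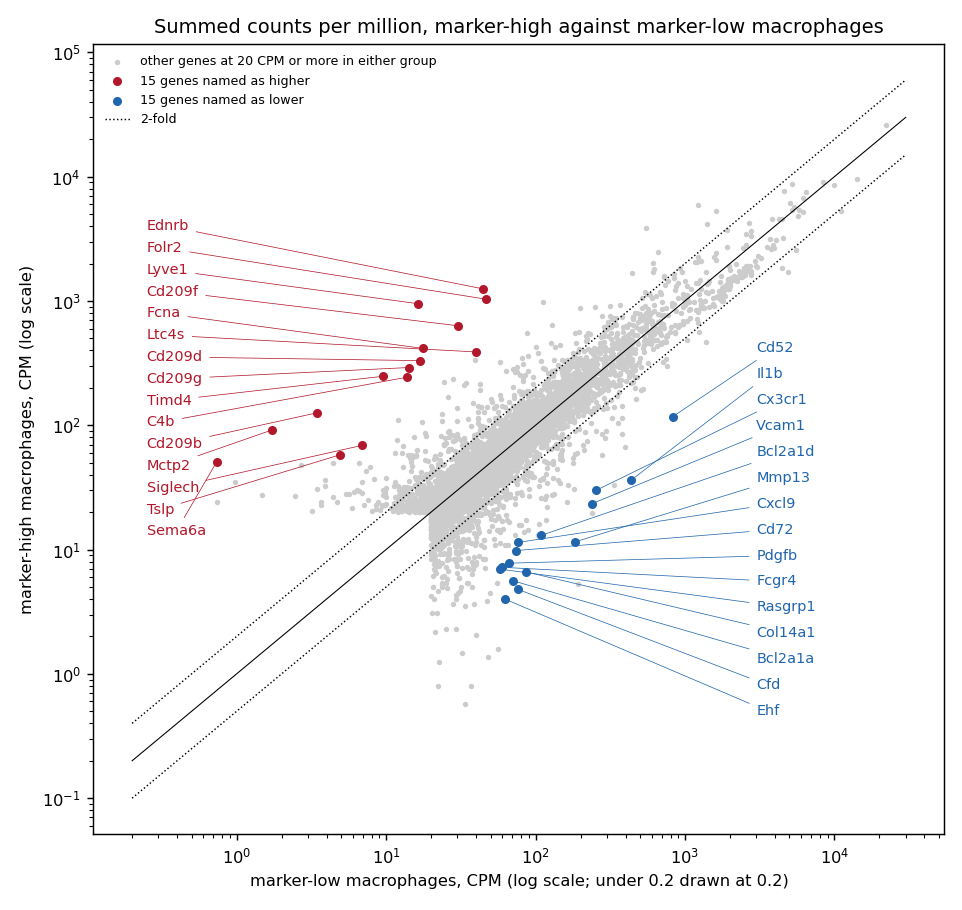
Each point is a gene at 20 CPM or more in either group, with its summed level in marker-low (horizontal) and marker-high macrophages (vertical), both in CPM on log scales, the solid line marking equal levels and dotted lines 2-fold. The 15 red genes lie on the upper left, among them Ednrb at 1250.0 against 44.7 CPM, and the 15 blue genes on the lower right, among them Cd52 at 117 against 829 CPM.

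Genes of the resident perivascular macrophage list were higher in marker-high cells as a group: 26 of 31 measured genes passed 2-fold upward and 0 passed it downward, with a median log2 ratio of 2.13. The list includes the 3 genes that chose the cells. Cd163, the scavenger receptor for haemoglobin bound to haptoglobin, had 876 CPM (857–896) in marker-high, 501 in intermediate and 199.8 in marker-low macrophages. F13a1, the A subunit of coagulation factor XIII, had 3844, 1918 and 549.9 CPM, a ratio of 6.99 (6.70–7.30). Selenop, a secreted selenium carrier, had 4129, 2352 and 1411 CPM, and Cbr2, a carbonyl reductase, had 559, 337 and 196 CPM. In all of these the intermediate cells lay between the other groups. Pltp, the phospholipid transfer protein, had 902 and 316 CPM in marker-high and marker-low cells, Cd38, an enzyme that consumes NAD, 136 and 29.9 CPM, and Vsig4, a complement receptor, 34.7 and 0.982 CPM (4 UMIs). Mgl2, Igf1, Stab1, Dab2 and Pf4 stayed short of 2-fold, with ratios of 1.31, 1.55, 1.87, 1.98 and 1.95.

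**Figure D3:**
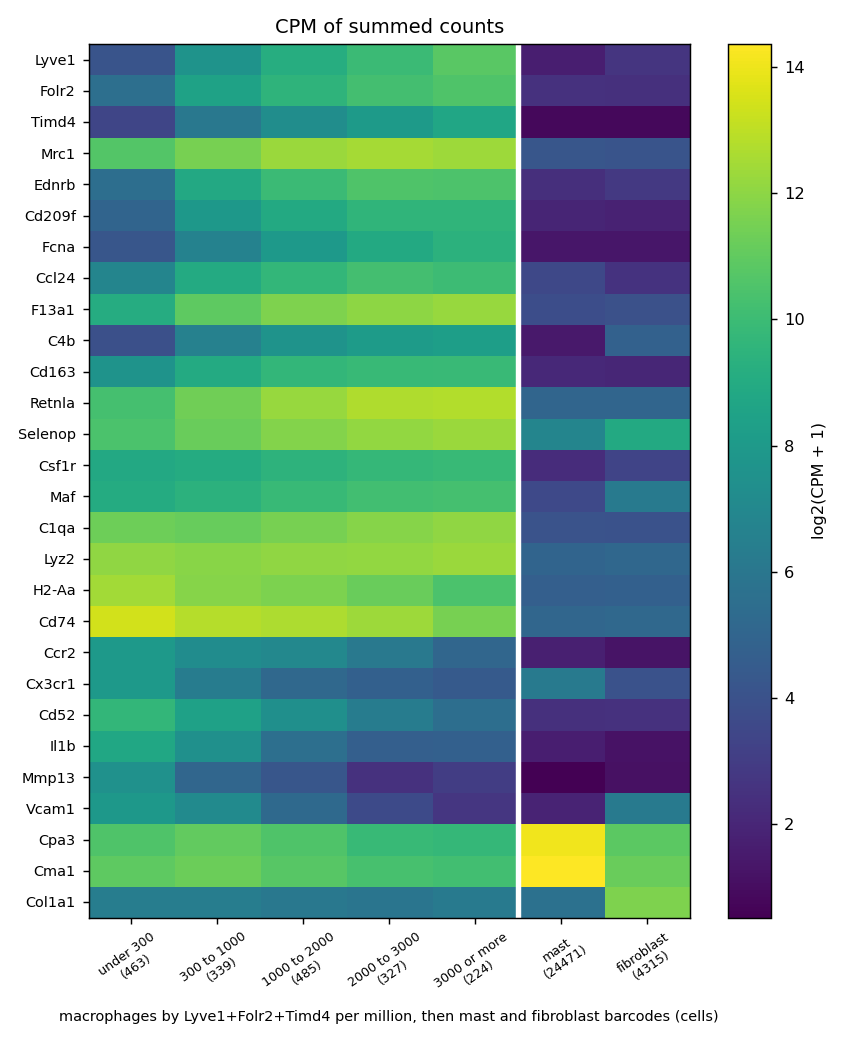
Heat map of 28 genes (rows) in macrophages binned by their marker sum in CPM and, right of the white line, in mast and fibroblast barcodes, coloured by log2(CPM + 1) of summed counts, with the number of cells under each column. Ednrb runs from 44.7 CPM in the lowest bin to 1510 CPM in the bin from 2000 to 3000, and H2-Aa has 5527 CPM in the lowest bin and 1375 CPM in the bin of 3000 or more.

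Uptake and clearance genes were mixed. Of 14 measured efferocytosis and scavenger receptor genes, 5 were at least 2-fold higher and 3 at least 2-fold lower, with a median log2 ratio of 0.76; 1 of the 5 is Timd4, which chose the cells. The bridging ligands that link phosphatidylserine to TAM receptor kinases were on the higher side, Gas6 at 428 and 100.2 CPM and Pros1 at 309 and 83.0 CPM. Of their receptors, Axl was lower at 17.1 CPM (14.5–20.1) against 118 CPM (107–129), while Mertk, the TAM receptor usual in resident macrophages, had 254 and 160.3 CPM, a ratio of 1.58 (1.45–1.73). The integrin subunits Itgb5 and Itgav were lower, at 27.2 against 90.8 CPM and 70.4 against 150.0 CPM. Colec12, a collectin scavenger receptor, was higher at 275 (265–287) against 63.8 CPM (56.3–72.1).

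Complement genes were higher or within 2-fold. Of 12 measured genes, 4 passed 2-fold upward, C4b, Cfb and Cfp among them, and 0 downward, with a median log2 ratio of 0.46. Cfp, or properdin, which stabilises the convertase of the alternative pathway, had 425 and 135 CPM. Cfb, the convertase's enzyme, had 32.2 and 3.93 CPM. An enzyme and a stabiliser of this pathway were therefore both higher, while C1qb had 2672 and 2460 CPM, a ratio of 1.09 (1.06–1.11). C6, a late complement component that was on the Kupffer cell list, had 24.0 and 0.737 CPM (3 UMIs), a ratio of 32.6 (11.0–159).

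Genes known from alternative activation were higher too, in 7 of 8 measured genes, with a median log2 ratio of 1.98. Retnla, a secreted protein induced by interleukin 4, had 5870 CPM (5819–5921) in marker-high, 2656 in intermediate and 1225 CPM (1191–1259) in marker-low macrophages, where 7 cells held 50% or more of its UMIs. Clec10a, a galactose-binding lectin, had 334 and 39.3 CPM, and Il4ra, the interleukin 4 receptor chain, 189 and 89.1 CPM. The classical genes Arg1 and Chil3 were nearly absent from both groups, with 4 and 13 UMIs in all marker-high cells. The list overlaps with the resident list at Mrc1, Clec10a, Mgl2 and Ccl24.

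Chemokine ligands were found on both sides. Of 18 measured ligands, 7 were at least 2-fold higher and 4 at least 2-fold lower, with a median log2 ratio of 0.46. Ccl24, an eosinophil attractant, had 973 CPM (952–994) in marker-high, 505 in intermediate and 111 CPM (101–122) in marker-low macrophages. Ccl8, Ccl7, Ccl6 and Ccl9 had ratios of 4.26, 2.83, 3.27 and 2.39. On the lower side were Ccl4 with 465 and 1372 CPM, Cxcl16 with 78.4 and 294 CPM, Cxcl10 with 26.6 and 63.8 CPM, and Cxcl9, which is induced by interferon gamma, with 11.4 and 76.8 CPM. Cxcl9 came from few cells, 27 of the marker-low group, 1 of which held 105 of 313 UMIs. Cxcl13, counted as higher, rested on 1 marker-high cell with 373 of 423 UMIs, and had 5.72 CPM without it.

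The receptor for monocyte chemoattractants went the other way. Ccr2 had 90.2 CPM (84.0–96.7) in marker-high, 153 in intermediate and 255 CPM (240.0–271) in marker-low macrophages. After thinning, 11.9% of marker-high and 39.3% of marker-low cells had a Ccr2 UMI. Cx3cr1, the fractalkine receptor, had 30.1, 79.6 and 256 CPM, 8.51-fold lower in marker-high cells (7.42–9.77). Its gene overlaps 9 others in the annotation and it stood at 72.8 CPM in mast barcodes. Ccr1 was higher, at 108 and 23.6 CPM.

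Genes of the monocyte list had 5 of 9 measured members at least 2-fold lower and 0 higher, with a median log2 ratio of -1.13. Among cells with the Macrophages tag alone 3 of 8 were lower (-0.41), among cells with Xist only 3 were lower and 1 higher (-0.49), and with Cpa3 and Cma1 up to 3% of UMIs likewise 3 and 1 (-0.50). Cd52, a small surface glycoprotein of leukocytes, had 117 CPM in marker-high, 347.5 in intermediate and 829 CPM in marker-low macrophages, and after thinning 21.3% and 83.5% of the high and low cells had a UMI of it. Fn1, or fibronectin, had 137 and 299.5 CPM, and Vcan, a proteoglycan, 8.46 and 44.4 CPM, but both were far higher in fibroblast barcodes, and Vcan had a log2 ratio of 0.12 among cells with the Macrophages tag alone. Hp, or haptoglobin, was called lower on 1 marker-low barcode that held 756 of 784 UMIs, and had 6.94 CPM in that group without it. Ly6c2, the marker of classical monocytes, was close to 0 in both groups, at 5.599 and 2.21 CPM (49 and 9 UMIs). Lyz2 had 4523 and 4230 CPM.

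MHC class II genes were lower in marker-high macrophages in 6 of 7 measured cases and higher in 0, with a median log2 ratio of -1.26. With Cpa3 and Cma1 up to 3% of UMIs 1 of 7 passed 2-fold (median -0.68), and with marker-high cells taken from 500 CPM 4 of 7 did (-1.10). H2-Aa (chromosome 17, 34282744–34287823, minus strand), an MHC class II chain, had 2576 CPM (2543–2610) in marker-high, 3759 in intermediate and 5527 CPM (5455–5600) in marker-low macrophages. H2-Eb1 had 1696, 2955 and 4918 CPM, and Cd74, the invariant chain, 5322, 7160 and 11098 CPM. Ciita, the master regulator of these genes, had 30.9, 58.7 and 90.1 CPM. The 4 abundant genes H2-Aa, H2-Ab1, H2-Eb1 and Cd74 were then summed in each thinned cell. The median was 33 UMIs in marker-high (10th to 90th percentile 1–102), 74 in intermediate and 112 in marker-low cells (44.2–168). At most 5 such UMIs were found in 232 marker-high cells (23.6%, 21.0–26.4%) and in 10 marker-low cells (2.40%, 1.16–4.37%). The marker-high group thus included both cells nearly free of MHC class II transcripts and cells within the range of the marker-low group. Few were as rich in them as a typical marker-low cell, since the marker-high 90th percentile of 102 UMIs lay under the marker-low median of 112.

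**Figure D4:**
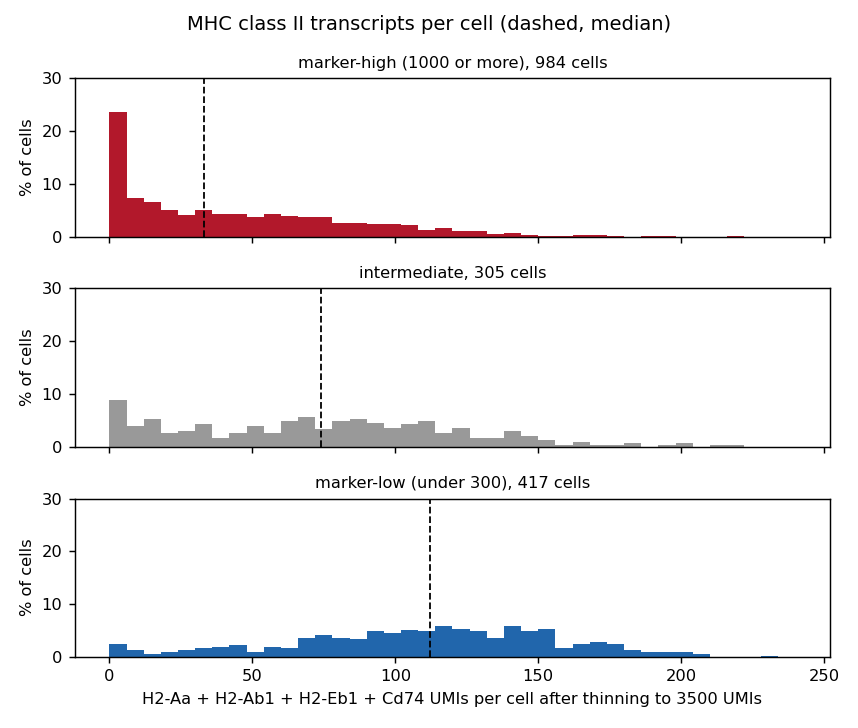
Share of cells (vertical, percent) by summed H2-Aa, H2-Ab1, H2-Eb1 and Cd74 UMIs per cell after thinning to 3500 UMIs (horizontal), for marker-high, intermediate and marker-low macrophages, with dashed medians. The median moves from 33 through 74 to 112 UMIs, and 23.6% of marker-high cells have at most 5.

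Dividing the 984 thinned marker-high cells into 4 parts by this sum, a division chosen after its values were seen, showed how other genes varied among them. The parts held 246, 250, 244 and 244 cells with 0–6, 7–33, 34–69 and 70–216 MHC class II UMIs. Ccr2 had 3.48 CPM (0.719–10.2) in the lowest part, then 38.9, 118 and 158 CPM (133–187) in the highest. Cd52 followed with 22.1, 67.4, 117 and 207 CPM. Cx3cr1 had 20.9 CPM (12.4–33.0) and 35.1 CPM (23.7–50.1) in the outer parts. Those intervals overlapped, so whether it followed cannot be told from these counts. Lyve1 had 1305, 934, 863 and 680.3 CPM, while Folr2 differed little, at 1073 (1005–1145) and 967 CPM (902–1035) in the outer parts. Other genes were also lower where MHC class II was higher: Ednrb from 1632 to 810.3 CPM, Fcna from 509.9 to 225 CPM, Vsig4 from 81.3 to 8.20 CPM, Colec12 from 409 to 149 CPM and Mctp2 from 142 to 43.3 CPM. Mgl2, a galactose-binding lectin, ran the other way, from 523 to 1123 CPM. The mast cell gene Cpa3 had 1099 CPM in the lowest and 876 CPM in the highest part. Lyve1 and Folr2 are genes of the rule, and the 4 parts share its threshold.

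Splitting the same cells by Timd4 gave smaller differences, and dropout at this depth means that cells without a UMI are not cells without the transcript. The 485 cells with a Timd4 UMI had 43.6 CPM of Ccr2 against 114 CPM in the 499 without. C4b was at 336 CPM (309–365) against 200.4 CPM (179.95–223), Cd209d at 402 against 299 CPM, and Cd163 at 1004 against 846 CPM. Lyve1 had 966 (919.9–1014) and 927 CPM (882–973), Folr2 1090 (1041–1141) and 1021 CPM (975–1070.0), and Mrc1 5265 and 5325 CPM. Lyve1, Folr2 and Timd4 together had to reach the sum that chose the cells, so their levels in this split are constrained by it.

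Inflammatory cytokine genes were divided, with 1 of 11 at least 2-fold higher and 3 lower, and a median log2 ratio of -0.04. Il1b, the interleukin 1 beta gene, had 35.99 CPM (315 UMIs) in marker-high, 173 in intermediate and 434 CPM in marker-low macrophages, 12.1-fold lower in the first (10.7–13.6). Its UMIs came from 69 marker-high and 173 marker-low cells. Tnf had 50.6 and 118 CPM, and Ptgs2, the inducible prostaglandin synthase, 13.9 and 41.7 CPM. Il6 was higher, at 69.2 (63.8–74.98) against 24.3 CPM (19.7–29.6), and stood at 68.2 CPM in mast barcodes. Il10 had 98.5 and 77.1 CPM, a ratio of 1.28 (1.12–1.46), and Cxcl2 4555 and 4435 CPM. The heat shock genes Hspa1a and Hspa1b, which respond to cell handling, had 939.9 against 1545 CPM and 1238 against 1973 CPM. None of the 12 immediate early and heat shock genes passed 2-fold, and none of 6 measured interferon response genes did.

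Of 16 measured lipid and foam cell genes, 10 were at least 2-fold lower and 1 higher, with a median log2 ratio of -1.19. This count depended on the cells used: 6 of 15 were lower among cells with the Macrophages tag alone (median -0.31), 5 of 15 with a mean over cells of per-cell CPM (-0.57), 5 of 15 among cells with Xist only (-0.57), and 4 of 15, with 3 higher, where Cpa3 and Cma1 could make up 3% of a macrophage's UMIs (-0.63). Trem2, the lipid-sensing receptor of foam cells, had 40.9 CPM (36.8–45.4) in marker-high and 85.4 CPM (76.7–94.9) in marker-low macrophages. Lpl, lipoprotein lipase, had 104 and 357 CPM, Spp1, osteopontin, 192 and 507 CPM, and Lgals3, galectin 3, 200.2 and 465 CPM. The Spp1 difference was not found among cells with the Macrophages tag alone, where its log2 ratio was 2.7e-05. Spp1 was at 166 CPM and Lgals3 at 342 CPM in mast barcodes, and both were detected in most fibroblast barcodes. Abca1, the cholesterol efflux pump, was the exception at 754 (736–772) against 277 CPM (261–294). Apoe had 8695 and 5216 CPM and Cd36 1535 and 848 CPM, both within 2-fold.

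Matrix proteases differed by member. Mmp13, a collagenase, was 15.96-fold lower (12.9–19.8), with 11.5 CPM in marker-high, 33.6 in intermediate and 184 CPM in marker-low macrophages. Its 750 UMIs in marker-low cells came from 122 cells, at most 53 from any cell. Mmp9, a gelatinase, was higher at 211 (202–221) against 33.1 CPM (27.8–39.2), as was Timp2, an inhibitor of these enzymes, at 731 against 328 CPM. Of the 10 measured genes of this list 2 were higher and 6 lower, Mmp2, Mmp12, Mmp14, Adam8 and Fn1 being the other lower ones. The list's direction was not stable: among cells with the Macrophages tag alone 2 were higher and 2 lower (median log2 ratio 0.01), among cells with Xist only 3 were higher and 2 lower (0.40), and with Cpa3 and Cma1 up to 3% there were 2 of each (-0.25), against a median of -1.10 in all cells.

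Other genes were among those with the lowest ratios. Vcam1, an adhesion molecule, had 23.3, 139.7 and 237 CPM in marker-high, intermediate and marker-low macrophages. Ehf, an ETS family factor known from epithelium, had 3.999 and 62.4 CPM, with UMIs in 21 marker-high and 88 marker-low cells. Fcgr4, an Fc receptor for IgG, had 7.20 and 59.9 CPM, Cd72, an inhibitory lectin, 9.83 and 74.4 CPM, and Rasgrp1, a Ras activator, 6.97 and 57.4 CPM. Bcl2a1a and Bcl2a1d, survival genes that are close copies of each other, had 5.599 against 70.95 CPM and 13.03 against 110 CPM. Col14a1, a fibril-associated collagen, had 6.63 and 85.9 CPM, with UMIs in 167 marker-low cells and at most 10 in any of them. The Cfd ratio of 15.8 rested on 1 marker-low barcode with 287 of 309 UMIs, which also held most of the UMIs of Adipoq, and without it Cfd was at 5.46 CPM in the marker-low and 4.80 CPM in the marker-high group.

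Among growth factors, 5 of 13 were at least 2-fold higher and 1 lower, with a median log2 ratio of 0.63, and members of 1 family differed in direction. Pdgfc had 295 CPM (284–307) in marker-high and 75.1 CPM (66.9–84.0) in marker-low macrophages, whereas Pdgfb had 7.77 (6.03–9.85) and 66.8 CPM (59.1–75.2). Bmp2, a bone morphogenetic protein, had 163 and 50.1 CPM. The co-receptors Nrp1 and Nrp2 had 328 against 155 CPM and 549 against 185 CPM. Both PDGF genes were nearly absent from mast barcodes, at 1.14 and 0.155 CPM.

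Transcription factor genes were mostly within 2-fold: of 27 measured, 5 were higher and 3 lower, with a median log2 ratio of 0.17. Maf, a large MAF factor of mature macrophages, had 1065 (1044–1087) against 515 CPM (493.5–538). Klf4 had 1563 and 729 CPM, and Tfec, a relative of MITF, 69.6 and 24.3 CPM. Pparg, the lipid-sensing nuclear receptor needed by alveolar macrophages, was lower at 21.8 (18.8–25.1) against 119.6 CPM (109–131), Spic, needed for red pulp macrophages, at 39.1 against 91.1 CPM, and Runx3 at 17.9 against 57.2 CPM, though Runx3 had 236 CPM in mast barcodes. Spi1, which encodes PU.1, had 177 and 221 CPM, and Irf8 73.6 and 117 CPM. Csf1r itself had 796, 529 and 461 CPM in the 3 groups, a ratio of 1.73 (1.64–1.82).

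Iron handling genes had 3 of 13 measured members higher and 0 lower, with a median log2 ratio of 0.35. Tfrc, the transferrin receptor, had 86.2 CPM (80.1–92.5) against 18.2 CPM (14.3–22.8), and Slc40a1, the iron exporter ferroportin, 56.1 against 21.4 CPM. Hmox1, which degrades haem, had 714 and 452 CPM. The neonatal Fc receptor gene Fcgrt, which recycles IgG, was higher at 458 against 128 CPM. Of 13 cathepsin and lysosome genes 1 was higher, Grn, the progranulin gene, at 676 against 304 CPM. Genes that mark macrophages of other organs gave no single picture. The Kupffer cell genes Vsig4 and C6 were higher, but Cd5l had 8 UMIs in all marker-high cells, and the microglial genes P2ry12 and Siglech were higher while Sparc was lower.

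**Figure D5:**
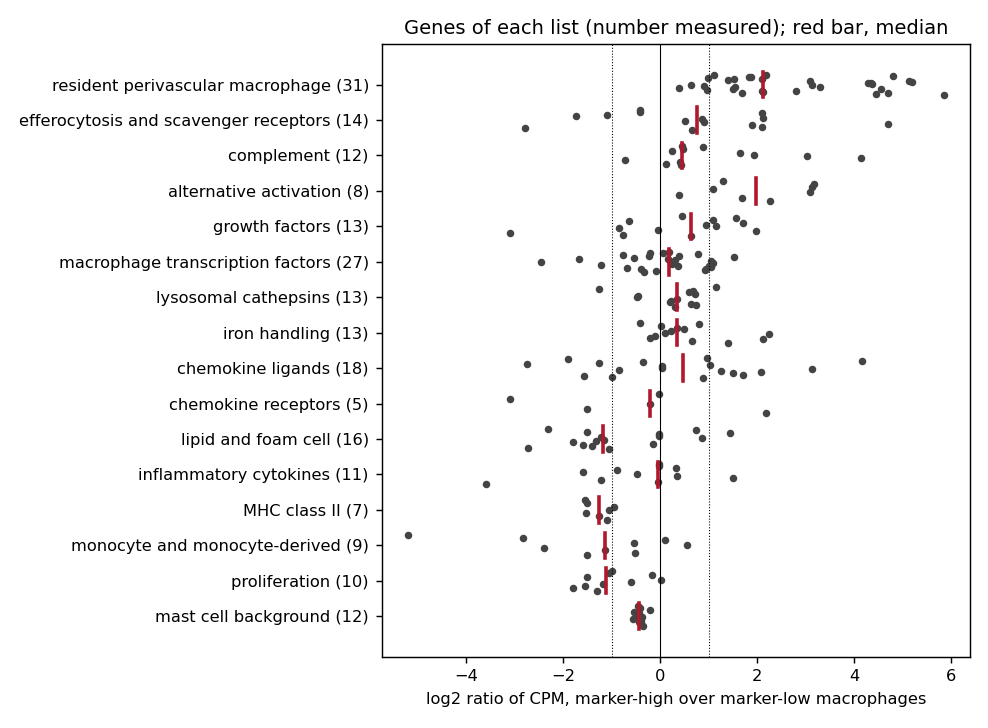
Each point is a measured gene (20 CPM or more in either group) of the list named at left, placed by its log2 ratio of CPM, marker-high over marker-low macrophages, with red bars at the list medians, dotted lines at 2-fold and the number of measured genes in brackets. The resident perivascular list has its median at 2.13, the MHC class II list at -1.26, and the mast cell background genes lie close together with a median of -0.43.

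Proliferation genes were lower in marker-high macrophages, 6 of 10 measured genes at least 2-fold and 0 higher, with a median log2 ratio of -1.12, and 2 of 10 where marker-high cells were taken from 500 CPM (-0.81). Mki67 had 38.1 CPM (34.1–42.4) in marker-high, 113 in intermediate and 94.0 CPM (84.9–103.9) in marker-low macrophages, and Top2a, the topoisomerase of dividing cells, 34.3, 127 and 120 CPM. UMIs of 3 or more of the 17 proliferation genes were found in 91 of 984 thinned marker-high cells (9.25%, 7.51–11.2%) and in 74 of 417 marker-low cells (17.7%, 14.2–21.8%). The intermediate cells were at 16.4%, mast barcodes at 30.4% and fibroblast barcodes at 14.2%. Mast barcodes had 105 CPM of Mki67 and 186 CPM of Top2a, and the part of background RNA in these shares was not tested.

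The differences were examined within the cells of each sex-linked class, as values by class. Of 589 macrophages with Xist only, 368 were marker-high (62.5%, 58.4–66.4%), and of 339 with Y-linked genes only, 195 were (57.5%, 52.1–62.8%), intervals that overlap. Ednrb had 1312 against 39.0 CPM in marker-high and marker-low cells with Xist only, and 1353 against 43.1 CPM in those with Y-linked genes only. The 15 genes named as highest include Lyve1, Folr2 and Timd4, and all 30 were picked by their ratios in the same cells, so these counts are no independent check. All 15 named as highest were at least 2-fold higher within each class, and 14 of the 15 named as lowest were at least 2-fold lower within each, the exception being Cfd. Il1b had 25.5 against 451 CPM with Xist only and 39.4 against 253 CPM with Y-linked genes only.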

How the data were processed

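Droplet (10x Chromium 3′) single-cell RNA sequencing was made of 1 pooled library. The authors deposited raw UMI counts per gene and barcode, not normalized, per the file headers. The submitters' processing notes name Cell Ranger 7.0.0, STAR, R 4.1.3, Seurat 4.1.1 and build mm10; counting of introns and strand are not given in the sources used here. The other listed library, of tags, was not used here.

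Barcodes needed 500 genes, 1000 gene UMIs and at most 10% mitochondrial UMIs. Macrophages had C1qa, C1qb and C1qc at 0.1% or more, Cpa3 and Cma1 under 1.5%, and Col1a1, Col1a2, Col3a1 and Dcn under 0.3% of gene UMIs. Mast and fibroblast barcodes passed only the matching gate. The 3 tag features stayed out of totals. Levels are CPM of summed UMIs with exact Poisson intervals, shares have exact Clopper-Pearson intervals and ratios exact conditional ones, all at 95%. Doublets were kept, and Scrublet (scanpy 1.11.5) calls were left out in an alternative. Cells were thinned without replacement to 3500 UMIs, the 10th percentile of macrophages rounded down to a multiple of 500. Tags were called at 2 times their background (Cafum 1.4 times).

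Named were the 15 genes with the highest and the 15 with the lowest ratio at 50 CPM or more in the higher group, at least 2 times the mast and fibroblast levels there and not mitochondrial, ribosomal, Gm or Rik genes, then up to 6 genes a list by level and any past 2-fold, and the 4 markers. A few genes that meet this rule are not reported here. Some other genes were picked after their values were seen. Of 409 genes in 35 lists, 407 were in the matrix. The marker-high cells and the lists were chosen with earlier results of these data known. Positions are from GENCODE annotation of GRCm38. Python 3.11.15 with scipy 1.17.1 was used, tested on simulated data. The alternatives tried were other thresholds for the marker sum, depth, mitochondrial share and mast genes, sums without 1 marker, 1 tag only, per-cell means, and, added after seeing the data, each sex-linked class and leaving out 1 barcode.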

Additional observations from a re-analysis of the deposited data

How the results depend on the processing

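With 1 library there was no replicate to leave out. No paired analysis was possible because all cells came from 1 library and no test was made. Depth limited detection: at 3500 UMIs per cell, a gene without a UMI cannot be called absent.

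The marker-high group held 195–1271 cells over the alternatives: 551 at 2000 CPM or more, 556 at 5% mitochondrial UMIs or less, 681 with Lyve1 left out of the sum, 569 with Folr2 left out, 368 among cells with Xist only and 195 among cells with Y-linked genes only. At 50 CPM or more, 171 of 3451 genes were lower (4.96%, against 5.73% in the main setting). With Cpa3 and Cma1 under 3%, 467 of 6424 were higher (7.27%, against 4.76%). With Y-linked genes only, 546 of 6242 were lower (8.75%, against 5.73%). The share with 3 or more proliferation genes was 31.6% in marker-high and 38.9% in marker-low cells without thinning, and with 2 or more genes 30.6% and 40.5%. With a stricter tag call the Macrophages tag was alone on 91.3% and 65.0%. Scrublet called 4678 barcodes, 8 of them marker-high.

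Of 2256 values for 133 named genes under 17 alternatives, 16 changed sign (log2 ratios). Cfd turned to 0.67 with the low group under 100 CPM, 1.49 with Cpa3 and Cma1 under 0.5%, 1.04 with the Macrophages tag alone, 0.25 with Xist only and 2.53 with Y-linked genes only. Car3 turned to 0.19, 0.59, 0.33, 1.14 and 2.00 in the same order, and to 0.47 without the barcode with most Cfd. With the Macrophages tag alone Hp was at 0.0021, Spp1 at 2.7e-05 and Vcan at 0.12. Gpnmb was at 0.93 with Xist only and S100a9 at 4.86 with Y-linked genes only. The cause was not tested.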
